A study of Mus musculus with 27 samples.

Results

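The integrins, cadherins and syndecans are cell surface proteins that hold cells to matrix and to each other, and their genes were followed here in marrow stromal cells treated with parathyroid hormone (PTH) or parathyroid hormone-related protein (PTHrP). Members were taken by gene symbol: every gene with a probe set of its own whose symbol begins with Itga or Itgb, without Itgb1bp1, Itgb3bp and Itgbl1, or consists of Cdh or Sdc and a number. This gave 51 of the 18193 genes named on the array, namely 16 integrin alpha, 10 integrin beta, 21 cadherin and 4 syndecan genes. Each gene was read from its probe set with the highest mean log2 intensity over all arrays. Symbol rules catch near names: Itgb1bp2 encodes melusin, a muscle protein that binds integrin beta 1 and is no integrin itself, and it is counted here with the beta genes, as is Itgb2l, a relative of Itgb2. Of the 51 genes, 43 reached a log2 intensity of 5 on at least 3 arrays and were tested. The other 8, which are Itgam, Itgae, Itgb6, Cdh1, Cdh8, Cdh9, Cdh18 and Cdh19, lay between 3.18 and 4.77 over all arrays.

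Integrins are pairs of an alpha and a beta chain. The chains together decide which matrix protein the pair binds, and adaptor proteins join the beta tail to actin at focal adhesions. Classical cadherins bind the same cadherin on a neighbouring cell and hold beta-catenin at their tails, so they form the junctions between osteoblasts and their precursors. Syndecans are membrane proteoglycans whose heparan sulphate chains bind growth factors and matrix and assist integrins.

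KUSA4b10, a mouse line of marrow stromal cells, received PTH(1–34) at 10 nM, PTHrP(1–141) at 20 nM or no peptide (control), and RNA was taken at 1, 6 and 24 h, with 3 arrays in each of the 9 groups. Both peptides act through the receptor encoded by Pth1r, and the series asks which genes they regulate while osteoblasts differentiate. Peptide, dose and peptide length differ together, so these cannot be told apart wherever PTHrP is set against PTH. All arrays come from 1 cell line. Whether the 3 replicates of a group were grown apart is not stated, and the p-values therefore cover the spread among these arrays alone, which may be technical.

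Array medians lay between 83.15 and 91.08 on the linear intensity scale. Within groups, arrays correlated at 0.992 to 0.9978 across genes, which are not independent replicates. The exception was replicate 3 of PTHrP at 1 h, which stood apart, with a lowest correlation of 0.9831 in its group. Of 7 osteoblast and stromal markers listed, 4 were matched to a gene with a probe set of its own, and Runx2, Bglap and Spp1 were not. The 4, Alpl, Col1a1, Sp7 and Pth1r, passed the filter, and their medians ran from 10.18 to 14.67. Their summed intensity at 24 h was 16820 to 18218 with PTH, 20143 to 25838 with PTHrP and 30605 to 31424 in controls, and at 6 h 34248 to 34769, 36626 to 38318 and 39228 to 41150 in the same order. Linear intensities were summed, so Col1a1, with a median log2 of 14.67 against 12.77 for Alpl, the next, makes up most of this sum. Most markers of other cell types passed too: 6 of 7 for macrophages and blood cells, 3 of 5 for endothelium and 6 of 6 for epithelium. So did 5 of 5 for skeletal muscle, 2 of 2 for platelets and 3 of 4 for neurons and glia. Those that did not pass were Ptprc of blood cells, Tek and Vwf of endothelium and Snap25 of neurons. Epcam of epithelium read 8.15 to 8.86. The summed markers of neurons and glia were also lower at 24 h, at 322 to 396 with PTH, 367 to 371 with PTHrP and 434 to 488 in controls, and higher at 6 h, at 620 to 624, 632 to 644 and 539 to 580 in the same order. Among these genes Tubb3 had the widest range over all arrays, from 6.06 to 8.62. The 3' over 5' signal of Actb, a measure of RNA quality, was 0.42 ± 0.01 log2 units with PTH and 0.44 ± 0.01 with PTHrP at 24 h, against 0.38 ± 0.01 in controls (SD, n = 3, exact permutation p = 0.1 for each, the smallest that 3 against 3 arrays allow). It was also higher with PTH at 6 h, at 0.34 ± 0.01 against 0.25 ± 0.05, and at 1 h, at 0.27 ± 0.02 against 0.23 ± 0.02 (exact p = 0.1 each). For Gapdh the same measure at 6 h was -0.17 ± 0.02 with PTH and -0.15 ± 0.03 with PTHrP, against -0.20 ± 0.02 in controls (exact p = 0.1 each). The part of these shifts in the results below was not tested. In bulk RNA, fewer cells of a type and less RNA per cell cannot be told apart.

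At 1 h both peptides changed the same 2 members, the syndecan genes Sdc1 and Sdc4, and both were higher. At 6 h the changes reached all 4 families. PTH raised 8 and lowered 6 of the 43 tested genes, and PTHrP raised 10 and lowered 5. At 24 h fewer members differed from control, 7 with PTH (of which 2 higher) and 5 with PTHrP (of which 1 higher). With PTH these were 3 integrin alpha, 1 cadherin and 3 syndecan genes, and with PTHrP 2, 1 and 2. A gene counts as changed at an adjusted p under 0.05 in limma, adjusted over all 15711 tested genes. By that rule the share of all genes that PTH changed was 1.74% at 1 h (1.44% higher, 0.299% lower), 29.3% at 6 h (11.4% higher, 17.9% lower) and 11.6% at 24 h (5.69% higher, 5.96% lower). With PTHrP the shares were 1.81% at 1 h (1.57% higher, 0.248% lower), 20.9% at 6 h (8.7% higher, 12.2% lower) and 6.1% at 24 h (3.09% higher, 3.02% lower). The members' own shares were 4.65%, 32.6% and 16.3% with PTH, and 4.65%, 34.9% and 11.6% with PTHrP. With PTH the 6 h share was close to that of all genes.

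The typical member moved as little as the typical gene. The median absolute log2 difference over the members at 6 h was 0.13 with PTH and 0.15 with PTHrP, and over all tested genes it was 0.14 with either peptide. In all, 18 of the 43 tested genes (41.9%) changed in at least 1 comparison with control, against 38.8% of all tested genes. They were 8 alpha, 4 beta, 2 cadherin and all 4 syndecan genes. The other 25 never did, and their differences lay between -0.28 and 0.52. The 25 were 6 alpha genes (Itga2, Itga4, Itga7, Itgal, Itgav and Itgax, from -0.25 to 0.23), 5 beta genes (Itgb1, Itgb1bp2, Itgb2, Itgb2l and Itgb4, from -0.19 to 0.35) and 14 cadherin genes (from -0.28 to 0.52).

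**Figure D1:**
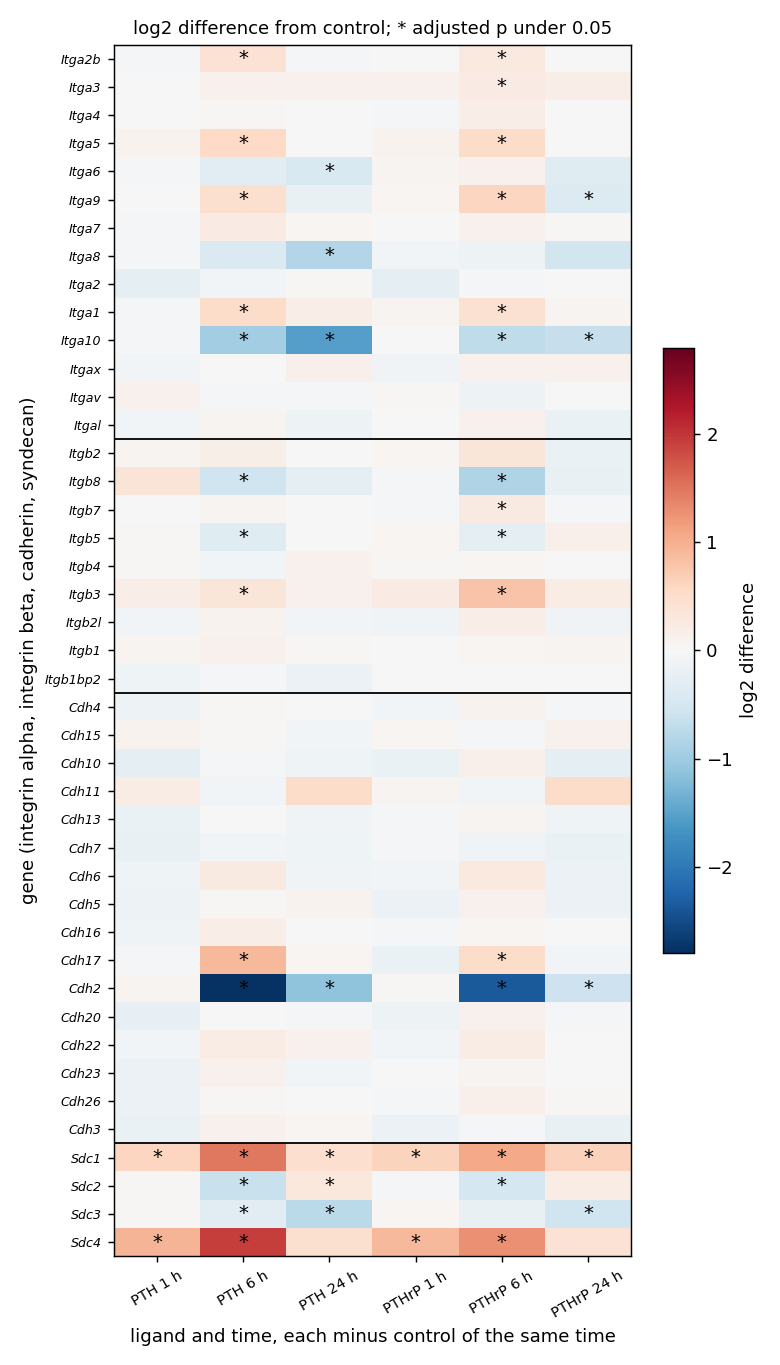
Log2 difference from the control of the same time for the 43 tested genes (rows, by family) with PTH and PTHrP at 1, 6 and 24 h (columns); a star marks an adjusted p under 0.05. Stars fall on 2 syndecan genes in both 1 h columns and on 14 genes with PTH and 15 with PTHrP at 6 h, and Cdh2 at 6 h is the darkest blue, at -2.77 with PTH.

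The syndecan genes moved in opposite directions. Sdc1 and Sdc4 rose and Sdc2 fell at 6 h with both peptides, and Sdc3 was lower at 24 h. The 250 bases before the gene start are shown for Sdc1 and Sdc4, which rose together within 1 h, and for Itga10 and Sdc3, which were both lower with either peptide at 24 h. They come from RefSeq on GRCm38.p6 and read along the gene: Sdc1 at chr12:8771146-8771395 (plus strand), Sdc4 at chr2:164443189-164443438 (minus strand), Itga10 at chr3:96645334-96645583 (plus strand) and Sdc3 at chr4:130792287-130792536 (plus strand). Capitals mark the motifs found on either strand.
Sdc1: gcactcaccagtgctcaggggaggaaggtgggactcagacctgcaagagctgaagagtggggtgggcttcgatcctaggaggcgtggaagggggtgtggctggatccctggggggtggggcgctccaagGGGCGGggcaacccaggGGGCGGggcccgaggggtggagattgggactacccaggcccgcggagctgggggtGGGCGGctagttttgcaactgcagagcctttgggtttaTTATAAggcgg
Sdc4: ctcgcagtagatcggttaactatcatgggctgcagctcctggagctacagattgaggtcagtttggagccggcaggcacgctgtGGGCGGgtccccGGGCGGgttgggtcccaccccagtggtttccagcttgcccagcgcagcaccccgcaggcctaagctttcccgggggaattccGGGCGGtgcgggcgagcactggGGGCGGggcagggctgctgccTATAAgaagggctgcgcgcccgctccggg
Itga10: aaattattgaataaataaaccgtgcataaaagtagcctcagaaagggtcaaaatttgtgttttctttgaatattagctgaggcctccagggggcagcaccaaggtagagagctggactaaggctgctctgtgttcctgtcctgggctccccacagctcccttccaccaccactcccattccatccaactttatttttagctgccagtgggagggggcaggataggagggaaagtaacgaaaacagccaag
Sdc3: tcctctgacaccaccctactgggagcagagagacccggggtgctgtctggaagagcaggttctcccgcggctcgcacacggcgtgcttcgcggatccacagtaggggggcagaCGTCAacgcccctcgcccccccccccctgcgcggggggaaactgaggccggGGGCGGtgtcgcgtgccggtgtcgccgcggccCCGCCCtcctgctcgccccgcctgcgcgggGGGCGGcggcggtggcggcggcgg
The motifs searched were the full cAMP response element TGACGTCA, its core TGACG, the AP-1 site TGANTCA, the GC box GGGCGG and the TATA core TATAA, each with its reverse complement. The full response element contains the core, so a match to it counts under both. Sdc1 has 3 GC boxes and a TATA core at -10 from the start, where TATAA and its reverse complement overlap. Sdc4 has 4 GC boxes and a TATA core at -29. Itga10 has none of the motifs, and Sdc3 has 3 GC boxes and a cAMP element core on the reverse strand at -137. Of all 32851 windows in the table, 32.7% hold a GC box, 22.8% a TATA core, 17.8% the TGACG core, 6.75% the AP-1 site and 1.55% the full response element. The 36 windows of the 32 members that the table holds include 14 with a GC box, 8 with a TATA core, 5 with TGACG, 1 with the AP-1 site and 0 with the full element. A match is letters only, not a bound site.

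Sdc1 carries heparan and chondroitin sulphate chains and binds growth factors at the cell surface. It was higher than control on every treated array at every time. Most genes whose arrays are listed were chosen for such a lack of overlap, so it adds no support for them. At 1 h it read 11.65, 11.61 and 11.68 log2 units with PTH, 11.64, 11.75 and 11.64 with PTHrP and 11.07, 11.01 and 11.08 in controls, a difference of 0.59 ± 0.07 with PTH and 0.62 ± 0.07 with PTHrP (SE, adjusted p = 2.03e-06 and 9.9e-07). At 6 h the arrays read 12.56, 12.80 and 12.60 with PTH, 12.28, 12.20 and 12.29 with PTHrP and 11.24, 11.19 and 11.13 in controls. This was the highest point of the course, 2.77-fold over control with PTH (log2 1.47 ± 0.07, adjusted p = 2.52e-14) and 2.10-fold with PTHrP (1.07 ± 0.07, adjusted p = 2.12e-11). At 24 h Sdc1 read 11.73, 11.62 and 11.75 with PTH, 11.84, 11.91 and 11.88 with PTHrP and 11.35, 11.19 and 11.18 in controls. It was still above control then, by 0.46 ± 0.07 with PTH and 0.64 ± 0.07 with PTHrP (adjusted p = 3.05e-05 and 4.98e-07).

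Sdc4 is the syndecan of focal adhesions, where it binds fibronectin beside integrins. It was higher at 1 and 6 h, and its differences at 24 h did not pass. At 1 h Sdc4 read 10.73, 10.64 and 10.94 with PTH, 10.82, 10.26 and 11.08 with PTHrP and 9.76, 9.83 and 9.83 in controls. At 6 h the values were 11.38, 11.75 and 11.89 with PTH, 11.10, 10.92 and 11.05 with PTHrP and 9.98, 9.26 and 9.97 in controls. No treated array overlapped a control at either time, although replicate 2 of PTHrP at 1 h and replicate 2 of control at 6 h lay below their groups. The rise at 1 h was 0.96 ± 0.17 with PTH and 0.91 ± 0.17 with PTHrP (adjusted p = 0.000961 and 0.00185). Without PTHrP replicate 3, the array that stood apart across genes, the PTHrP rise was 0.73 (adjusted p = 0.0113). Over all alternatives it ran from 0.45 to 1.14. At 6 h Sdc4 was 3.82-fold over control with PTH (1.93 ± 0.17, adjusted p = 2.33e-09) and 2.44-fold with PTHrP (1.29 ± 0.17, adjusted p = 3.31e-06). At 24 h the differences were 0.44 ± 0.17 and 0.40 ± 0.17 (adjusted p = 0.105 and 0.227), with 95% intervals of 0.09 to 0.79 and 0.05 to 0.75. Both passed when only the arrays compared entered the fit (adjusted p = 0.00768 and 0.0132). The second probe set of Sdc4, which is dimmer, differed by -0.07 with PTH and 0.05 with PTHrP at 6 h, so the probe sets disagree. With the mean of both, the 1 h differences were 0.48 and 0.45 and did not pass (adjusted p = 0.111 and 0.152).

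Sdc2, the syndecan typical of mesenchymal cells, turned from lower to higher. At 6 h it read 11.41, 11.48 and 11.51 with PTH, 11.67, 11.63 and 11.50 with PTHrP and 12.12, 12.04 and 12.13 in controls, falling by 0.63 ± 0.07 and 0.50 ± 0.07 (adjusted p = 1.64e-07 and 1.09e-05). At 24 h it read 13.04, 12.89 and 12.95 with PTH, 12.83, 12.94 and 12.91 with PTHrP and 12.61, 12.73 and 12.67 in controls. All treated arrays were then above the controls, by 0.29 ± 0.07 with PTH (adjusted p = 0.00788) and by 0.22 ± 0.07 with PTHrP, which did not pass (adjusted p = 0.0782) but did with cyclic loess or the mean over probe sets (adjusted p = 0.0253 and 0.013). The PTH rise did not pass when only the arrays compared entered the fit (adjusted p = 0.0602). The change of the effect between 6 and 24 h did pass, at 0.92 ± 0.10 with PTH and 0.71 ± 0.10 with PTHrP (adjusted p = 3.52e-07 and 2.95e-05).

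Sdc3, known from neural and musculoskeletal tissue, had 1 direction. At 24 h it read 9.65, 9.48 and 9.47 with PTH, 9.63, 9.84 and 9.70 with PTHrP and 10.24, 10.23 and 10.40 in controls. The groups did not overlap, and Sdc3 fell by 0.75 ± 0.08 (PTH) and 0.56 ± 0.08 (PTHrP) (adjusted p = 5.53e-07 and 4.82e-05). At 6 h the Sdc3 difference was -0.30 ± 0.08 with PTH (adjusted p = 0.00666) and -0.20 ± 0.08 with PTHrP (adjusted p = 0.103). Control cells also had less Sdc3 at 24 h than at 1 h, at -0.87 ± 0.08 (adjusted p = 2.21e-08).

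**Figure D2:**
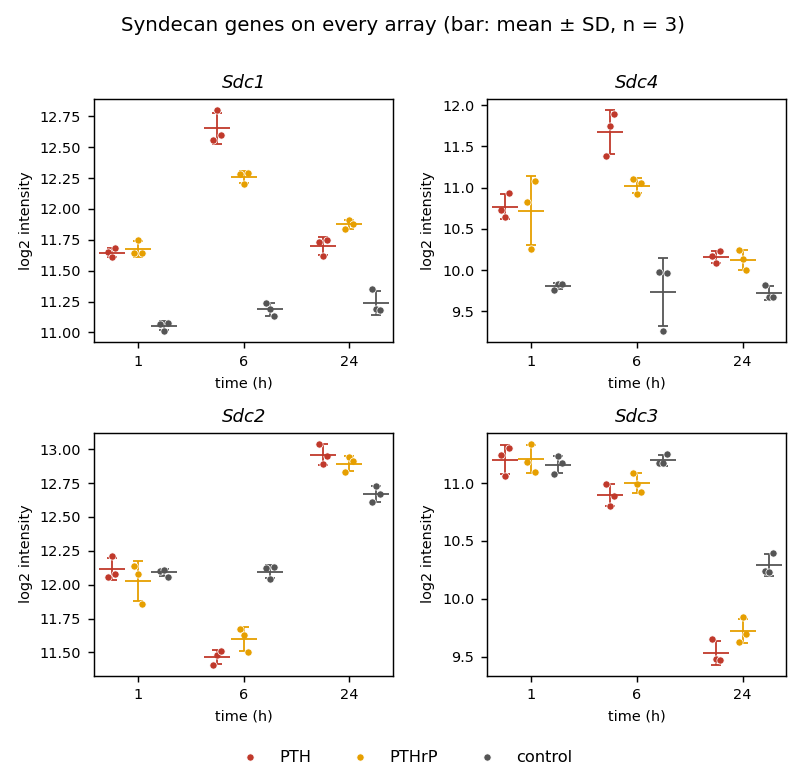
Log2 intensity of the 4 syndecan genes on every array (points) at 1, 6 and 24 h with PTH, PTHrP and in controls; bars give the mean ± SD, n = 3. Sdc1 and Sdc4 peak at 6 h with PTH (means 12.65 and 11.67), Sdc2 is below control at 6 h and above it at 24 h, and Sdc3 is lowest at 24 h.

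The cadherin that changed most was Cdh2, which encodes N-cadherin, the classical cadherin of stromal and osteoblast junctions. At 1 h the groups overlapped and no difference passed: the arrays read 10.03, 10.32 and 10.32 with PTH, 10.23, 10.28 and 10.07 with PTHrP and 10.19, 10.16 and 10.10 in controls. At 6 h Cdh2 read 7.37, 7.36 and 7.40 with PTH, 7.99, 7.64 and 7.77 with PTHrP and 10.12, 10.27 and 10.05 in controls. It was thus 6.83 times lower with PTH (log2 -2.77 ± 0.10, adjusted p = 1.89e-16) and 5.10 times lower with PTHrP (-2.35 ± 0.10, adjusted p = 9.41e-15), the largest difference of any member. At 24 h it read 8.41, 8.01 and 8.21 with PTH, 8.76, 8.76 and 8.75 with PTHrP and 9.47, 9.26 and 9.30 in controls. The gap to control had narrowed but remained, at -1.13 ± 0.10 with PTH and -0.59 ± 0.10 with PTHrP (adjusted p = 1.27e-08 and 0.000273). Control cells themselves had lost Cdh2 by then, at -0.81 ± 0.10 against 1 h (adjusted p = 1.15e-06). A second probe set of Cdh2 gave -1.83 with PTH and -1.72 with PTHrP at 6 h.

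Of the other 15 tested cadherin genes, 1 changed in a comparison with control. With Cdh2 included, 12.5% of the 16 tested changed at least once, against 38.8% of all tested genes. Cdh17, the cadherin of liver and intestine, read 5.88, 5.93 and 5.42 with PTH, 5.32, 5.25 and 5.46 with PTHrP and 4.79, 4.94 and 4.75 in controls at 6 h. The groups did not overlap, but the signal is near the filter: 4 of the 9 control arrays reached 5. It rose by 0.92 ± 0.14 with PTH and 0.52 ± 0.14 with PTHrP at 6 h (adjusted p = 1.25e-05 and 0.00827), and at 24 h the differences were 0.06 and -0.08. Cdh11 encodes OB-cadherin, the other main cadherin of osteoblasts, and in the fit to all arrays it did not pass at any time. It is described because its 24 h differences, seen first, were the largest among members that never passed, 0.52 ± 0.19 with PTH and 0.51 ± 0.19 with PTHrP (adjusted p = 0.0833 and 0.141), with 95% intervals of 0.13 to 0.92 and 0.12 to 0.91. Its arrays then read 7.82, 7.58 and 7.51 with PTH, 8.13, 7.05 and 7.68 with PTHrP and 7.28, 7.07 and 6.98 in controls, so PTHrP overlapped the controls and PTH did not. Without PTHrP replicate 2, the array at 7.05, the PTHrP difference was 0.80 and passed (adjusted p = 0.00467), and with only the arrays compared the PTH difference passed (adjusted p = 0.0119). Cdh1, the E-cadherin of epithelium, and 4 more cadherin genes were below the filter in every group.

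**Figure D3:**
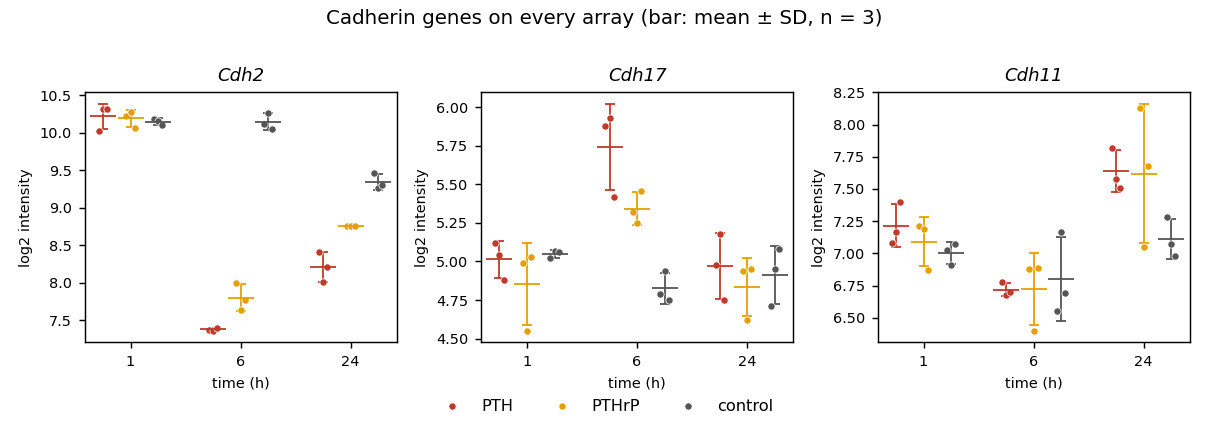
Log2 intensity of Cdh2, Cdh17 and Cdh11 on every array (points) at 1, 6 and 24 h with PTH, PTHrP and in controls; bars give the mean ± SD, n = 3. Cdh2 separates at 6 h (means 7.38 with PTH, 7.80 with PTHrP and 10.15 in controls), Cdh17 is higher at 6 h near the filter, and no Cdh11 difference passed the test.

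Most calls of integrin alpha genes at 6 h were higher, and all those at 24 h were lower. Of the genes raised at 6 h, Itga9 alone was also called lower at 24 h, with PTHrP. At 6 h PTH raised 4 and lowered 1 of the 14 tested, and PTHrP raised 5 and lowered 1. These were 35.7% and 42.9%, against 29.3% (11.4% higher, 17.9% lower) and 20.9% (8.7% higher, 12.2% lower) of all genes. At 24 h PTH raised 0 and lowered 3, and PTHrP raised 0 and lowered 2 (limma). The shares were then 21.4% and 14.3%, against 11.6% (5.96% lower) and 6.1% (3.02% lower) of all genes. None passed at 1 h, when 1 had an unadjusted p under 0.05 with PTH and 1 with PTHrP. Itga5, whose product binds fibronectin with the beta 1 chain, read 9.33, 9.47 and 9.44 with PTH, 9.52, 9.28 and 9.31 with PTHrP and 8.96, 8.79 and 8.80 in controls at 6 h. The treated arrays all lay above the controls, by 0.56 ± 0.07 with PTH and 0.52 ± 0.07 with PTHrP (adjusted p = 1.34e-06 and 8.06e-06). At 24 h Itga5 was within 0.02 log2 units of control with either peptide.

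Itga9 encodes a chain that binds tenascin and osteopontin, and its effect turned with time. At 6 h it read 7.27, 7.32 and 7.28 with PTH, 7.53, 7.46 and 7.36 with PTHrP and 6.84, 6.85 and 6.86 in controls, a rise of 0.44 ± 0.08 with PTH and 0.60 ± 0.08 with PTHrP (adjusted p = 0.000141 and 5.41e-06). At 24 h it read 6.51, 6.52 and 6.80 with PTH, 6.46, 6.42 and 6.37 with PTHrP and 6.85, 6.87 and 6.70 in controls. Only PTHrP passed then, at -0.39 ± 0.08 (adjusted p = 0.00272), and with PTH the arrays overlapped the controls (-0.20 ± 0.08, adjusted p = 0.137), though without PTH replicate 3 the difference passed (-0.29, adjusted p = 0.023). The difference between the peptides at 24 h did not pass either (adjusted p = 0.412). Itga1, a collagen and laminin receptor chain, was above control by 0.51 ± 0.12 with PTH and 0.42 ± 0.12 with PTHrP at 6 h. Its means then were 7.62 with PTH, 7.54 with PTHrP and 7.12 in controls, and controls at 1 h averaged 7.58. The treated arrays thus stayed near the 1 h controls while the 6 h controls were lower. The differences of Itga2b, the platelet fibrinogen receptor chain, were 0.41 ± 0.08 and 0.26 ± 0.08 at 6 h (adjusted p from 0.000125 to 0.0139 for Itga1 and Itga2b). Itga3, a laminin receptor chain, differed by 0.23 ± 0.07 with PTHrP (adjusted p = 0.0168). The PTHrP calls of these 3 genes depended on single arrays. Without control replicate 3 none of them passed (Itga1 0.36, adjusted p = 0.0762, Itga2b 0.20, adjusted p = 0.0977, and Itga3 0.21, adjusted p = 0.0655). Without PTHrP replicate 1 Itga2b and Itga3 did not (adjusted p = 0.0574 and 0.079), and without control replicate 2 Itga1 did not (adjusted p = 0.051).

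Itga10, a collagen receptor chain best known from cartilage, was the integrin gene with the largest change. At 6 h it read 8.91, 9.08 and 8.90 with PTH, 9.30, 9.14 and 9.22 with PTHrP and 9.84, 10.05 and 9.90 in controls. At 24 h it read 8.12, 8.03 and 7.96 with PTH, 8.76, 8.94 and 9.04 with PTHrP and 9.52, 9.49 and 9.69 in controls. At both times the 3 groups stood in the same order with no overlap. Itga10 fell by 0.97 ± 0.09 (PTH) and 0.71 ± 0.09 (PTHrP) at 6 h (adjusted p = 4.02e-09 and 1.25e-06). At 24 h it was 2.89 times lower with PTH (-1.53 ± 0.09, adjusted p = 7.87e-12) and 1.57 times lower with PTHrP (-0.65 ± 0.09, adjusted p = 1.31e-05).

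Itga8, whose product binds nephronectin with the beta 1 chain, read 4.95, 4.60 and 4.82 with PTH, 4.72, 5.33 and 5.21 with PTHrP and 5.86, 5.49 and 5.48 in controls at 24 h. PTH passed, at -0.82 ± 0.16 (adjusted p = 0.000997), and PTHrP did not, at -0.52 ± 0.16 (adjusted p = 0.0586). The PTHrP difference did pass without PTHrP replicate 2 (-0.64, adjusted p = 0.0339) and with the mean over probe sets (-0.46, adjusted p = 0.0476). These levels are near the filter, and control cells had themselves fallen by 1.51 ± 0.16 since 1 h (adjusted p = 1.35e-07). Itga6, a laminin receptor chain, had a difference of -0.42 ± 0.13 with PTH at 24 h (adjusted p = 0.0423), a call that few arrays decide. It was lost with the replicate number as a block (adjusted p = 0.056), without control replicate 1 (-0.34, adjusted p = 0.186) or 2 (-0.38, adjusted p = 0.155), and without PTH replicate 2 (-0.33, adjusted p = 0.17) or 3 (-0.42, adjusted p = 0.0884). Itgav, the alpha chain of several vitronectin receptors, did not pass in any comparison with control, with differences between -0.15 and 0.13.

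At 6 h PTH changed 3 of the 9 tested integrin beta genes (1 higher, 2 lower) and PTHrP changed 4 (2 higher, 2 lower). These were 33.3% and 44.4%, against 29.3% (11.4% higher, 17.9% lower) and 20.9% (8.7% higher, 12.2% lower) of all genes. Itgb1, the partner of most of the alpha chains above, differed from control by 0.02 to 0.13 log2 units at all times and did not pass. Itgb3, which pairs with the alpha v chain to bind vitronectin and osteopontin, read 6.80, 6.97 and 6.90 with PTH, 7.59, 7.26 and 7.18 with PTHrP and 6.44, 6.59 and 6.63 in controls at 6 h. The PTHrP arrays were all above the PTH arrays, which were all above the controls. The rise was 0.34 ± 0.08 with PTH (adjusted p = 0.00271) and 0.79 ± 0.08 with PTHrP (adjusted p = 9.8e-08).

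Itgb5, another partner of alpha v, moved the other way at 6 h, at 10.20, 10.34 and 10.35 with PTH, 10.52, 10.27 and 10.42 with PTHrP and 10.63, 10.67 and 10.64 in controls. It fell by 0.35 ± 0.07 (PTH) and 0.25 ± 0.07 (PTHrP) (adjusted p = 0.000217 and 0.00874), without overlap, and the PTHrP call was lost without PTHrP replicate 2 (-0.18, adjusted p = 0.0778). Itgb8, whose alpha v pair activates latent TGF-beta, read 6.06, 6.34 and 6.02 with PTH, 6.09, 5.58 and 5.92 with PTHrP and 6.97, 6.60 and 6.53 in controls at 6 h. Control arrays averaged 6.70 then and 6.19 at 1 h. This shift of 0.51 did not pass (adjusted p = 0.289) but did with only the arrays compared (adjusted p = 0.0398). With PTHrP, Itgb8 differed from the 6 h controls by -0.84 ± 0.21 (adjusted p = 0.00432). With PTH the difference was -0.56 ± 0.21 (adjusted p = 0.0434), and this call was lost without control replicate 1 (-0.42, adjusted p = 0.209), control replicate 2 (-0.61, adjusted p = 0.0606), PTH replicate 1 (-0.52, adjusted p = 0.117) or PTH replicate 3 (-0.50, adjusted p = 0.132). Itgb7, a lymphocyte integrin chain, had a difference of 0.25 ± 0.09 with PTHrP at 6 h (adjusted p = 0.043). This call was lost with the replicate number as a block (adjusted p = 0.0574), without control replicate 1, 2 or 3 (adjusted p = 0.104, 0.118 and 0.0692) and without PTHrP replicate 1 or 2 (adjusted p = 0.158 and 0.0793). None of the 9 beta genes passed at 24 h or at 1 h (limma). Of all genes, 11.6% with PTH and 6.1% with PTHrP passed at 24 h, and 1.74% and 1.81% at 1 h. At 24 h 0 of them had an unadjusted p under 0.05 with PTH and 2 did with PTHrP. Their largest differences then were those of Itgb8, -0.26 ± 0.21 with PTH and -0.22 ± 0.21 with PTHrP.

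**Figure D4:**
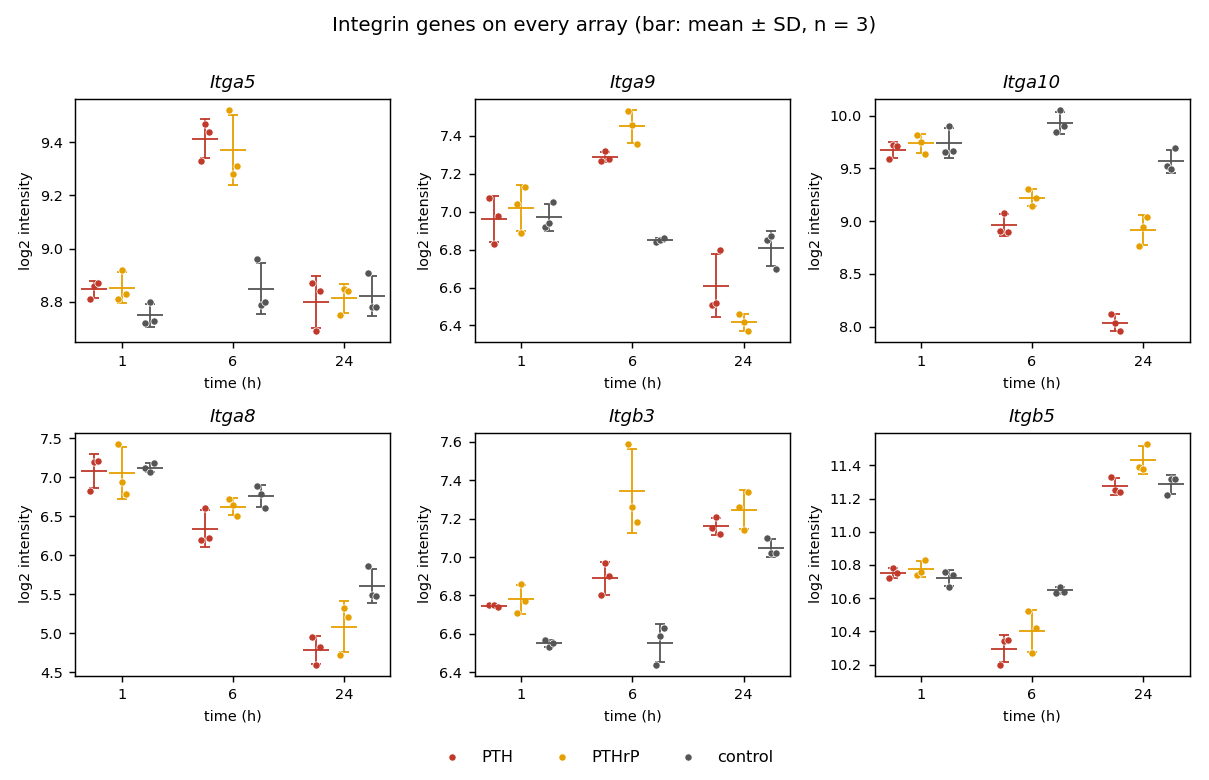
Log2 intensity of 4 alpha and 2 beta integrin genes on every array (points) at 1, 6 and 24 h with PTH, PTHrP and in controls; bars give the mean ± SD, n = 3. Itga5 and Itga9 rise at 6 h with both peptides, Itga10 steps down at 6 and 24 h (mean 8.04 with PTH and 8.91 with PTHrP at 24 h, against 9.57 in controls), and Itgb3 is highest with PTHrP at 6 h.

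The peptides were then set against each other at the same time. At 1 h 0 members and 0% of all genes differed by limma, and 0 members had an unadjusted p under 0.05. At 6 h 5 members (11.6%) differed (3 higher, 2 lower with PTHrP), against 7.62% of all genes (4.45% higher, 3.17% lower). At 24 h 2 (4.65%) differed (both higher), against 1.16% (0.84% higher, 0.318% lower). At 6 h Sdc1 was lower with PTHrP than with PTH by a log2 difference of -0.40 ± 0.07 (adjusted p = 0.000635), Itgb3 was higher by 0.45 ± 0.08 (adjusted p = 0.00118) and Cdh2 was higher by 0.42 ± 0.10 (adjusted p = 0.00975). At 24 h Itga10 was higher with PTHrP by 0.88 ± 0.09 (adjusted p = 3.27e-06) and Cdh2 by 0.54 ± 0.10 (adjusted p = 0.00388). Sdc4 (-0.64 ± 0.17, adjusted p = 0.0201) and Itga6 (0.43 ± 0.13, adjusted p = 0.0492) also passed at 6 h, but less firmly. The count of 5 was 3 without PTH replicate 2, and 3 without each of the PTHrP replicates 1, 2 and 3. Omitting 1 array of PTHrP or PTH ended the call of Itga6 in all 6 cases (adjusted p up to 0.222). That of Sdc4 ended without PTH replicate 2 (-0.61, adjusted p = 0.0827), PTH replicate 3 (-0.54, adjusted p = 0.112), PTHrP replicate 2 (-0.59, adjusted p = 0.0732) or PTHrP replicate 3 (-0.66, adjusted p = 0.0561). That of Cdh2 at 6 h ended without PTHrP replicate 1 (0.33, adjusted p = 0.0755). Genes that passed against control with 1 peptide only, such as Itga3, Itga8, Itgb7 and Sdc3 at 6 h or 24 h, did not pass here, so a difference between the peptides is not shown for them. A like response is not shown either: the 95% interval of the 6 h difference was -0.20 to 0.11 for Itga5 and -0.01 to 0.28 for Sdc2.

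Changes of the effect with time were tested as differences of differences from control. Between 1 and 6 h the PTH effect changed for 13 members (30.2%, with 7 up and 6 down), against 18.5% of all genes (6.49% up, 12.1% down). The PTHrP effect changed for 9 (20.9%, with 5 up and 4 down), against 12.2% (3.74% up, 8.45% down). Without PTHrP replicate 3 at 1 h, the array that stood apart, the PTHrP count was 14. Between 6 and 24 h the PTH effect changed for 11 members (25.6%, with 3 up and 8 down), against 20.4% of all genes (12.6% up, 7.82% down). The PTHrP effect then changed for 10 (23.3%, with 3 up and 7 down), against 12.1% (7.08% up, 5.03% down). Cdh2 led each of them: its effect changed by -2.85 ± 0.14 with PTH and -2.39 ± 0.14 with PTHrP from 1 to 6 h, and by 1.64 ± 0.14 and 1.76 ± 0.14 from 6 to 24 h (adjusted p from 4.14e-13 to 8.23e-09). The PTH effects on Sdc4 and Sdc1 dropped by 1.49 ± 0.24 and by 1.01 ± 0.10 from 6 to 24 h. These comparisons share arrays with those above and with each other.

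Control cells also changed with time. At 24 h against 1 h, 11 members (25.6%) differed (7 higher, 4 lower), against 23.1% of all genes (11.6% higher, 11.5% lower). Itgb2, the beta chain of leukocyte integrins, was higher by 0.74 ± 0.15, Sdc2 by 0.58 ± 0.07, Itgb5 by 0.56 ± 0.07 and Itga7, a laminin receptor chain of muscle, by 0.54 ± 0.11. Itga8, Sdc3, Cdh2 and Itga1 were lower, at -1.51 ± 0.16, -0.87 ± 0.08, -0.81 ± 0.10 and -0.69 ± 0.12. At 6 h against 1 h 1 member (2.33%) differed, Itga1 (-0.46 ± 0.12, adjusted p = 0.0436), against 2.27% of all genes (0.719% higher, 1.55% lower). That count was 0 without control 1 h replicate 1, 2 or 3 and without control 6 h replicate 2 or 3.

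The proteins that work with these receptors were followed in 4 lists of 98 genes, 92 of them on the array. The lists were chosen with earlier results of these data known, so their counts and medians describe them and test nothing about them as sets. None passed at 1 h by limma, against 1.74% of all genes with PTH and 1.81% with PTHrP. At most 1 gene of a list then had an unadjusted p under 0.05 with PTH, and 2 to 5 did with PTHrP. Over all tested genes, PTH raised 11.4% and lowered 17.9% at 6 h, and 5.69% and 5.96% at 24 h. With PTHrP these shares were 8.7% and 12.2% at 6 h, and 3.09% and 3.02% at 24 h. Among integrin adaptors and focal adhesion genes, PTH raised 14 of 28 and lowered 7 at 6 h, and PTHrP raised 14 and lowered 6. The list's median difference was 0.22 with PTH and 0.24 with PTHrP, against 0.00 and 0.03 over all tested genes. Parvb, beta-parvin, which links integrins to actin, rose by 2.42 ± 0.08 with PTH and 2.17 ± 0.08 with PTHrP. Lims2, an adaptor of the same complex, rose by 1.34 ± 0.11 and 0.98 ± 0.11. Cav1, caveolin-1, fell by 0.80 ± 0.12 and 0.54 ± 0.12. At 24 h PTH raised 5 and lowered 6, PTHrP raised 4 and lowered 5, and Vcl, vinculin, fell by 0.70 ± 0.07 (PTH) and 0.60 ± 0.07 (PTHrP).

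Integrin ligand genes were more often lower than higher at 24 h: PTH raised 2 of 21 and lowered 11, and PTHrP raised 2 and lowered 8. Over all tested genes PTH raised 5.69% and lowered 5.96% then, and PTHrP raised 3.09% and lowered 3.02%. At 6 h the counts were 3 raised and 6 lowered by PTH, and 2 raised and 6 lowered by PTHrP. Lower calls were then also the more frequent over all genes, at 17.9% against 11.4% higher with PTH and 12.2% against 8.7% with PTHrP. Tgfbi, a matrix protein bound by several integrins, rose by 2.43 ± 0.23 with PTH and 2.22 ± 0.23 with PTHrP at 6 h, and by 1.62 ± 0.23 and 1.60 ± 0.23 at 24 h. Lamb1, a laminin chain, rose at 24 h by 1.18 ± 0.13 and 1.13 ± 0.13. Ibsp, bone sialoprotein, and Postn, periostin, were lower at 24 h, at -2.85 ± 0.17 and -2.70 ± 0.19 with PTH and at -1.57 ± 0.17 and -2.47 ± 0.19 with PTHrP. Ibsp and Postn are themselves genes of differentiating osteoblasts, whose marker sum, mostly Col1a1, was lower in the same groups, and the part of that shift was not tested. Thbs1, thrombospondin-1, fell at 6 h by 1.51 ± 0.10 (PTH) and 1.60 ± 0.10 (PTHrP).

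Of 15 cadherin partners, PTH raised 4 and lowered 8 at 6 h, PTHrP raised 3 and lowered 4, and at 24 h each lowered 1. That gene was Ctnnb1, which encodes beta-catenin. It was lower by a log2 difference of -1.11 ± 0.06 with PTH and -0.94 ± 0.06 with PTHrP at 6 h (adjusted p = 4.91e-13 and 2.81e-11), and of -0.43 ± 0.06 and -0.24 ± 0.06 at 24 h. Cdh2 was lower at the same times. Of 25 syndecan partners and heparan sulphate genes, PTH raised 6 and lowered 2 at 6 h, and PTHrP raised 2 and lowered 3. At 24 h PTH raised 3 and lowered 2, and PTHrP raised 5 and lowered 1. For both of these lists, the shares of all genes higher and lower at 6 h were 11.4% and 17.9% with PTH, and 8.7% and 12.2% with PTHrP. The 24 h shares were 5.69% and 5.96% with PTH, and 3.09% and 3.02% with PTHrP. Sulf1, an enzyme that removes sulphate from heparan chains outside the cell, rose at 24 h by 1.80 ± 0.13 with PTH and 1.48 ± 0.13 with PTHrP. Ext1, a polymerase of those chains, rose at 6 h by 0.88 ± 0.08 and 0.35 ± 0.08, and this was lower with PTHrP than with PTH (-0.52 ± 0.08, adjusted p = 0.000172). Gpc1, glypican-1, a heparan sulphate proteoglycan of another family, fell at 24 h by 1.02 ± 0.09 (PTH) and 0.58 ± 0.09 (PTHrP).

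Other probe sets of the same genes were compared where the array has them, which is the case for 30 of the 51 members. The 4 probe sets of Sdc1 were all higher at 6 h, from 1.04 to 1.82 with PTH and from 0.79 to 1.25 with PTHrP. Those of Itgb5 were all lower, from -0.40 to -0.32 with PTH and from -0.31 to -0.21 with PTHrP. Those of Sdc2 were all lower too, from -0.64 to -0.32 and from -0.52 to -0.26. They disagreed for Sdc4, as given above, and for Sdc3, where 1 of 3 differed by only 0.07 and -0.03 at 6 h. The 3 probe sets of Itga3 gave 0.23, 0.09 and 0.08 with PTHrP, and 0.12, -0.38 and -0.18 with PTH, where the gene was not called. All 3 probe sets of Itga9 were higher at 6 h, from 0.21 to 1.13 with PTH and from 0.23 to 1.01 with PTHrP.

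**Figure D5:**
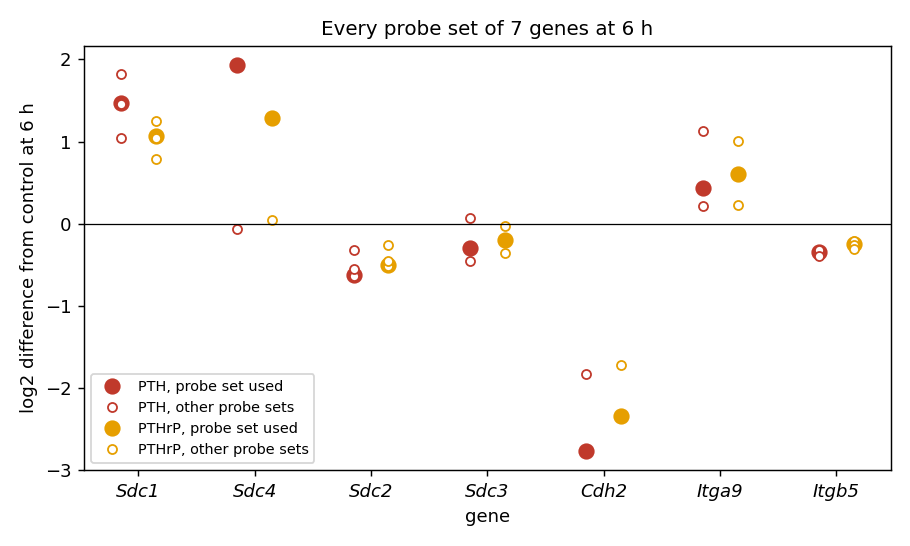
Log2 difference from control at 6 h for every probe set of 7 genes, with PTH and PTHrP; filled points are the probe sets used and open points the others, with no error bars. The 4 points of Sdc1 all lie above 0 and the 4 of Itgb5 below it with either peptide, and the open points of Sdc4 lie at -0.07 and 0.05.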

How the data were processed

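RNA of 27 samples was read on 1 microarray each, a short-oligonucleotide design with 45101 probe sets. The deposited values are RMA intensities on a linear scale, per the submitters' processing notes, and per the series' design text the authors normalised them again for the deposit because the original normalised data were not at hand. RMA pulls arrays to a common distribution, so a change shared by most genes would not show, and it compresses changes of dim genes. Scanner files were not used here.

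The intensities were taken to log2. Of the probe sets, 34945 carry 1 gene symbol, 932 several and 9224, control probe sets included, are not listed in the annotation. No member symbol occurs on a probe set with several symbols. Each of the 18193 genes was read from its probe set with the highest mean, and 15711 genes at log2 5 or more on at least 3 arrays were tested. limma 3.58.1 in R 4.3.3 fitted the 9 group means to all 27 arrays, with two-sided tests and Benjamini-Hochberg adjustment over all tested genes in each of 15 comparisons, and was tested on simulated data. The ± beside a difference is its standard error from this fit, with 18 residual degrees of freedom. With 3 arrays a group, precision is limited by their number.

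The members and gene lists were chosen with earlier results of these data known. Any member may be named. Values on each array are given for the 4 largest rises and the 4 largest falls in each comparison with control, and Itgb5 and Cdh11 were added after their values were seen. Of PTHrP against PTH, the 6 largest changes per time are named, of changes with time those of at least 1 log2 unit, of control cells the 4 largest per direction, and of each partner list the 2 largest rises and falls per comparison. Same-numbered arrays deviated together, at correlations over 0.1 for every pair, in 1 of 9 pairs of groups, so the numbers were not taken to pair arrays. Alternatives tried were no filter, a filter at log2 6, cyclic loess, the mean over a gene's probe sets, only the arrays compared, the replicate block, and leaving out each array.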

Additional observations from a re-analysis of the deposited data

Results flagged for a closer look

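The results below passed a test of the difference itself, either between the 2 peptides at one time or between 2 times under the same peptide. Of the changes with time, those of at least 1 log2 unit are given. At 6 h PTHrP differed from PTH by -0.64 log2 units for Sdc4, the focal adhesion syndecan, by -0.40 for Sdc1, by 0.45 for Itgb3, by 0.43 for Itga6 and by 0.42 for Cdh2. Against control, PTHrP thus gave smaller differences than PTH for Sdc4, Sdc1 and Cdh2 and a larger one for Itgb3. Not all of these 6 h calls were firm: of 12 alternatives, 9 ended that of Itga6, 5 that of Sdc4 and 2 that of Cdh2. The probe sets of Sdc4 also disagreed, as given above. At 24 h PTHrP differed from PTH by 0.88 for Itga10, a collagen receptor chain, and by 0.54 for Cdh2, both of which were closer to control with PTHrP.

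The effect on Cdh2, N-cadherin, changed with time more than that on any other member: by -2.85 with PTH and -2.39 with PTHrP between 1 and 6 h, and by 1.64 with PTH and 1.76 with PTHrP between 6 and 24 h. The PTH effects on Sdc4 and Sdc1 changed by -1.49 and -1.01 between 6 and 24 h. Peptide, dose and length cannot be told apart in the comparisons of PTHrP with PTH.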

How the results depend on the processing

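Of the 107 member calls over all comparisons, 81 kept their direction and their call under every alternative in which the gene was tested and 26 lost the call under at least 1. Of the 45 calls against control, 10 lost it. No followed result changed sign. The counts that moved by more than 1.5 times are these. The count of members changed in control cells at 6 h against 1 h, 1 and lower, was 0 with cyclic loess, 0 with the mean over probe sets, 3 with only the arrays compared (1 higher, 2 lower) and 0 to 1 when single arrays were left out. With the mean over probe sets 1 member passed with PTH at 1 h, and with only the arrays compared 1 passed with PTHrP at 1 h. Leaving out single arrays gave 3 to 4 members for PTHrP against PTH at 6 h, all below the 5 with every array, and 7 to 14 for the change of the PTHrP effect from 1 to 6 h. Some named calls were also lost under other settings. With cyclic loess these were Itgb8 with PTH at 6 h (adjusted p = 0.0949) and Itga6 with PTH at 24 h (adjusted p = 0.121), and in PTHrP against PTH at 6 h Itga6 (adjusted p = 0.151). With the mean over probe sets they were Itga1 and Itga3 with PTHrP at 6 h (adjusted p = 0.0733 and 0.152), and Cdh2 and Sdc4 in PTHrP against PTH at 6 h (0.27, adjusted p = 0.139, and -0.26, adjusted p = 0.332). With only the arrays compared they were Sdc4 with PTHrP at 1 h (adjusted p = 0.153) and Itga6 with PTH at 24 h (adjusted p = 0.0548). With no filter they were Itgb7 with PTHrP at 6 h (adjusted p = 0.0506) and Itga6 in PTHrP against PTH at 6 h (adjusted p = 0.0557). The cause was not tested. With the replicate block, 14 members changed with PTH and 14 with PTHrP at 6 h, 4 differed between the peptides at 6 h, and no count moved by more than 1.5 times. The block ended 7 of the 107 calls, among them Itga6 in PTHrP against PTH at 6 h (adjusted p = 0.064) and those of Itga6 and Itgb7 given above. Genes near the filter, such as Cdh17 and Itga8, lie close to background, which limits what their differences can show.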
